A study of Mus with 6 samples.

Results

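Txnip, Arrdc4 and Slc2a1 are 3 genes through which a cell reads and sets its glucose uptake, and they are described here in 4T1 cells, a mouse mammary carcinoma line, exposed to isopimaric acid (IPA). They are 3 of the 35304 Ensembl gene IDs in the count table and were chosen by ID, as ENSMUSG00000038393 (Txnip), ENSMUSG00000042659 (Arrdc4) and ENSMUSG00000028645 (Slc2a1). All 3 passed the filter on low counts, as did 24935 IDs in all. The 3 IPA samples had received 10 µg/mL of this plant diterpene acid for 24 h, and the 3 untreated samples are labelled as given no treatment; whether they received the solvent is not stated. Both groups were grown in RPMI 1640 medium with fetal bovine serum, and their RNA was extracted with Trizol. The series title names oxidative phosphorylation as a pathway that IPA acts on, which is the question these genes bear on.

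Txnip (thioredoxin-interacting protein) and Arrdc4 (arrestin domain containing 4) belong to the alpha-arrestins, adaptor proteins that bring membrane proteins to ubiquitin ligases and to endocytosis. Both genes are known targets of MondoA and its relative ChREBP, transcription factors that, with their partner Mlx, sense phosphorylated glucose. When respiration is inhibited, cells are known to draw glucose into glycolysis faster, and TXNIP mRNA is known to fall. TXNIP protein binds the glucose transporter GLUT1, the product of Slc2a1, and promotes its removal from the cell surface; ARRDC4 is also known to restrain glucose uptake. Slc2a1 itself is a known target of the hypoxia factor HIF1 and of growth signalling, and GLUT1 is the main carrier of basal glucose uptake in many tumour cells.

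In the RefSeq annotation of GRCm38.p6, Txnip lies at chr3:96557957-96561857, Arrdc4 at chr7:68736994-68749238 and Slc2a1 at chr4:119108745-119137330, all annotated as protein coding. The whole Txnip span of 3901 bases lies within the annotated long noncoding RNA gene Gm15441. Slc2a1 shares 1881 bases of its span with the long noncoding RNA gene Gm12867 and 5 bases with Gm52706. Arrdc4 overlaps no gene of that annotation. Whether reads were counted by strand is not given in the sources used here, so reads of Txnip and of Gm15441 may not be told apart in these counts.

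Total counts per library ran from 3410411 to 43593509 with IPA and from 20257983 to 58924711 in untreated cells. IPA replicate 1 was the shallowest library, with 41 counts for Txnip, 18 for Arrdc4 and 1053 for Slc2a1. Untreated replicate 2 stood apart over all genes: its correlation in log2 CPM (counts scaled to one common library total) with the other 5 libraries was 0.779 to 0.811, against 0.922 to 0.987 among those 5. For this reason the comparisons of IPA with untreated cells are given with all 6 libraries and again without that library. Markers that would check the 4T1 label or show other cells were not used here, because the sources used here do not pair the table's other IDs with gene names.

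No change of Txnip, Arrdc4 or Slc2a1 with IPA was detected. These are bulk samples, in which fewer cells of a state and less RNA per cell cannot be told apart. In CPM, Txnip and Arrdc4 were, in each IPA library, above untreated replicates 1 and 3 and below untreated replicate 2. Slc2a1 levels with IPA lay, also in CPM, inside the range of the untreated libraries. The edgeR quasi-likelihood test over all 6 libraries called 0 of the 3 genes, and 0% of all 24935 IDs, at an adjusted p under 0.05. At an unadjusted p under 0.05 it had 1560 IDs, 6.26% of those tested, none of them these genes. DESeq2 called 85 IDs, 0.241% of the 35304 it fitted, again none of them these genes, and limma-voom called 0. DESeq2 gave an adjusted p to only 18483 IDs, these 3 among them, so its share is not directly comparable with that of edgeR.

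Txnip stood at 12.0, 10.8 and 9.43 CPM in IPA replicates 1, 2 and 3, against 7.06, 16.0 and 9.34 CPM in untreated replicates 1, 2 and 3. The IPA values lay close together, and the untreated values spread on both sides of them, so the groups overlapped. Of all tested IDs, 15.7% had IPA values wholly above and 6.38% wholly below the untreated values, and none of these 3 genes was among them. The mean was 10.8 ± 1.30 CPM with IPA and 10.8 ± 4.67 CPM in untreated cells (SD, n = 3 each). On the scale of the fit, which corrects library sizes by trimmed means of M-values (TMM), the means were 9.92 ± 0.947 CPM with IPA and 12.5 ± 7.75 CPM in untreated cells. The fitted log2 fold change, IPA over untreated, was -0.34 ± 0.46 (SE; edgeR adjusted p = 0.809). Its 95% interval ran from a fold of 0.375 to 1.67, so these libraries allow a lower as well as a higher Txnip level with IPA.

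Arrdc4, which shares the arrestin fold with Txnip, had 5.28, 5.32 and 5.00 CPM in IPA replicates 1, 2 and 3, against 2.37, 5.63 and 4.24 CPM in untreated replicates 1, 2 and 3. Untreated replicate 1 was the low library, and untreated replicate 2 was again above all IPA libraries. The mean was 5.20 ± 0.177 CPM with IPA and 4.08 ± 1.64 CPM in untreated cells (SD, n = 3 each). On the TMM scale of the fit the means were closer, at 4.80 ± 0.108 CPM with IPA and 4.66 ± 2.62 CPM in untreated cells. The fitted log2 fold change was 0.04 ± 0.49 (SE; edgeR adjusted p = 0.981), with a 95% interval from a fold of 0.459 to 2.31.

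Slc2a1 had 309, 339 and 283 CPM in IPA replicates 1, 2 and 3, against 285, 208 and 376 CPM in untreated replicates 1, 2 and 3. In CPM the lowest and the highest of the 6 values were both untreated libraries, replicates 2 and 3. On the TMM scale the lowest was IPA replicate 3, at 268 CPM, against 276 CPM in untreated replicate 2. The mean was 310 ± 28.1 CPM with IPA and 289 ± 84.5 CPM in untreated cells (SD, n = 3 each). On the TMM scale the order of the means was the other way, at 286 ± 24.1 CPM with IPA and 308 ± 52.0 CPM in untreated cells. The fitted log2 fold change was -0.11 ± 0.22 (SE; edgeR adjusted p = 0.874), with a 95% interval from a fold of 0.650 to 1.33. The interval was the narrowest of the 3 genes. The fitted change had the opposite sign with library totals in place of TMM (0.10), where the median over all tested IDs moved by a similar amount, to 0.13 from -0.08; set against that median, Slc2a1 stood at -0.03 under both scalings. Against the same medians Txnip stood at -0.26 with TMM and -0.14 with library totals, and Arrdc4 at 0.12 with TMM and 0.21 with library totals.

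**Figure D1:**
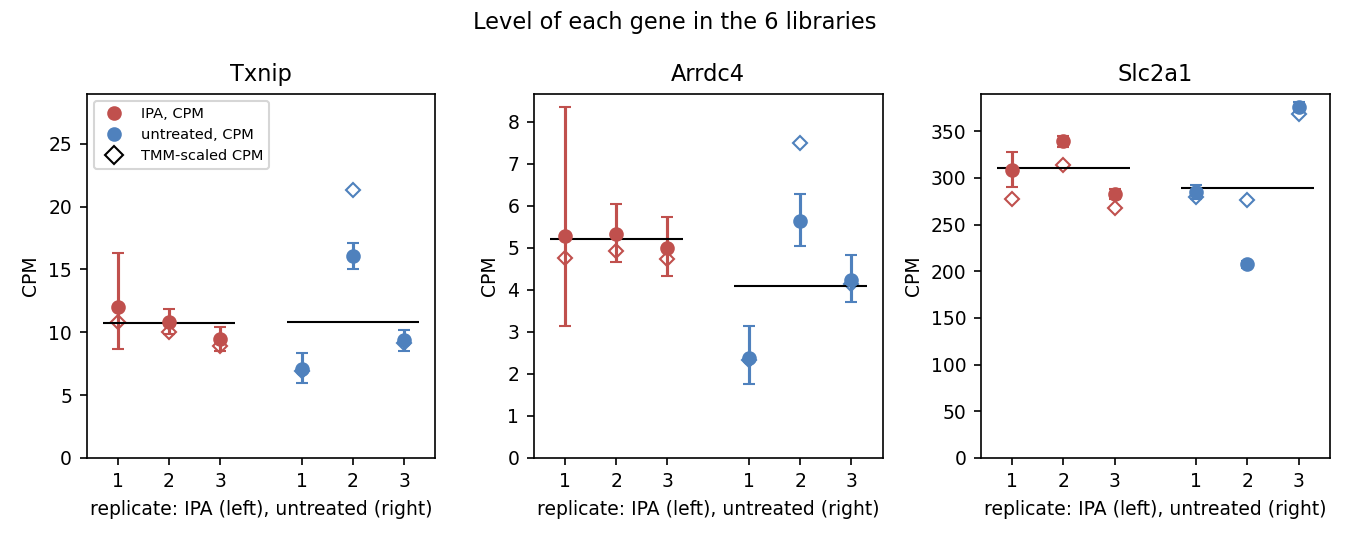
Level of Txnip, Arrdc4 and Slc2a1 in each library, in CPM, with the 3 IPA libraries on the left of each panel and the 3 untreated libraries on the right. Filled circles are CPM with 95% exact Poisson intervals, which cover counting error only, open diamonds are TMM-scaled CPM, and black lines are group means of CPM; the IPA libraries sit together, for Txnip between 9.43 and 12.0 CPM, while the untreated libraries run from 7.06 to 16.0 CPM.

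The spread among untreated libraries was larger than counting error. Txnip in untreated replicate 1 had a 95% exact Poisson interval of 5.95 to 8.32 CPM, below that of untreated replicate 3, at 8.54 to 10.2 CPM, and that of untreated replicate 2, at 15.0 to 17.1 CPM. For Arrdc4 the intervals were 1.75 to 3.14 CPM in untreated replicate 1, 5.04 to 6.27 CPM in untreated replicate 2 and 3.70 to 4.83 CPM in untreated replicate 3, which also do not overlap. With IPA, the intervals of the 3 libraries overlapped for Txnip and for Arrdc4. IPA replicate 1 carries little weight there: its interval was 8.63 to 16.3 CPM for Txnip and 3.13 to 8.34 CPM for Arrdc4. For Slc2a1, which had more counts, the intervals of the IPA libraries did not overlap. They were 290 to 328, 334 to 344 and 278 to 288 CPM in IPA replicates 1, 2 and 3. All these intervals treat each read as an independent molecule and cover counting error only.

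In CPM, the IPA libraries were the more alike for all 3 genes, by a margin that for Txnip and Slc2a1 depended on untreated replicate 2. The coefficient of variation of Txnip was 12.0% with IPA and 43.2% in untreated cells (n = 3 each), and 19.7% over the 2 untreated libraries other than replicate 2. That of Arrdc4 was 3.40% with IPA and 40.1% in untreated cells, and 40.0% over those 2 untreated libraries. The 3.40% rests on 18, 232 and 205 counts in IPA replicates 1, 2 and 3. The counting interval of each is wider than the spread of the 3 values, so 3.40% is no measure of how little Arrdc4 varied. For Slc2a1 it was 9.06% with IPA and 29.2% in untreated cells, and 19.6% over those 2 untreated libraries. On the TMM scale the coefficient of Slc2a1 was 8.43% with IPA and 16.9% over the 3 untreated libraries, a smaller gap than in CPM. For the arrestins the untreated coefficient was higher on the TMM scale than in CPM. It was 62.2% for Txnip, against 9.55% with IPA, and 56.3% for Arrdc4, against 2.24% with IPA. Over the 24935 IDs the median coefficient was 18.9% with IPA and 48.9% in untreated cells, and it was higher in untreated cells for 77.2% of IDs. Without untreated replicate 2 the untreated median was 15.4% and the coefficient was higher in untreated cells for 40.8% of IDs. A coefficient over 2 libraries tends to be lower than one over 3 at equal spread. Those without untreated replicate 2, also for the 3 genes, are therefore not directly comparable with those with IPA. The settings without that library and on the TMM scale were added for these coefficients after the data had been seen. The biological coefficient of variation that edgeR fitted was 0.446 for Txnip, 0.492 for Arrdc4 and 0.265 for Slc2a1, and 0.179, 0.216 and 0.118 in the same order without untreated replicate 2.

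Untreated replicate 2 carried the highest Txnip and Arrdc4 and the lowest Slc2a1 of the 6 libraries in CPM. In CPM that library was the highest of the 6 for 26.9% of the 24935 tested IDs and the lowest for 51.5%. In TMM-scaled log2 CPM it exceeded the mean of untreated replicates 1 and 3 by 1.41 for Txnip and by 1.25 for Arrdc4, and Slc2a1 stood at -0.22 from that mean. Deviations of this size were common in that library, where the median size over all tested IDs was 1.13. Those of Txnip and Arrdc4 were larger than the deviations of 58.3% and 53.9% of IDs, and that of Slc2a1 was larger than those of 11.0%. The part of that library in the results for these genes is shown by the values without it.

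**Figure D2:**
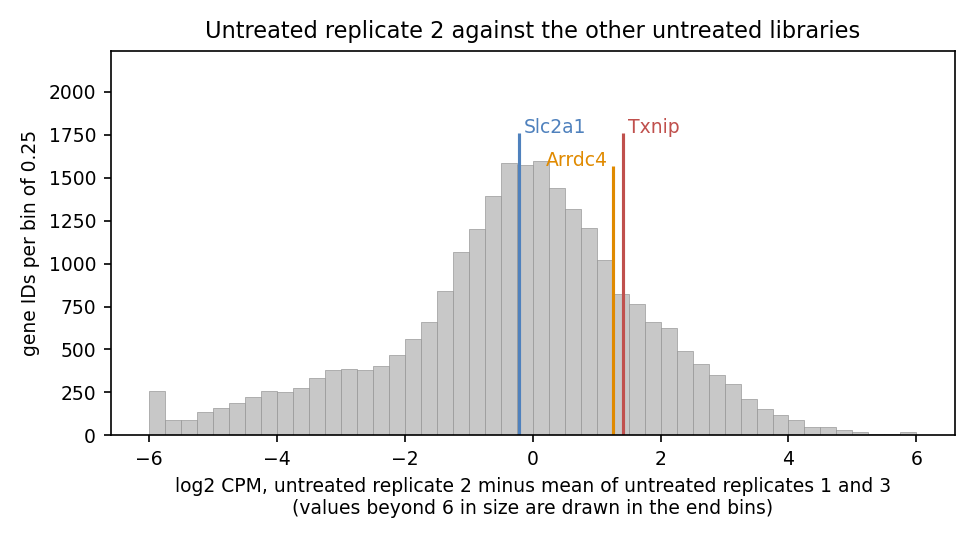
Histogram over all 24935 tested gene IDs of log2 CPM (TMM-scaled, prior count 2) in untreated replicate 2 minus the mean of untreated replicates 1 and 3, with the 3 genes as vertical lines. Txnip at 1.41 and Arrdc4 at 1.25 lie on the right side of a broad distribution, and Slc2a1 at -0.22 lies near its centre.

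Without untreated replicate 2, both alpha-arrestins were fitted higher with IPA and Slc2a1 lower, and none of the 3 passed the test. In this comparison of 3 IPA with 2 untreated libraries, edgeR called 3.46% of 25592 IDs, 1.26% higher and 2.2% lower with IPA, and 0 of the 3 genes. Arrdc4 had the largest fitted change of the 3, at 0.52 ± 0.31 on the log2 scale (SE; adjusted p = 0.442 by edgeR), with a 95% interval from a fold of 0.913 to 2.24. Txnip was at 0.25 ± 0.24 on that scale (SE; adjusted p = 0.682 by edgeR), with an interval from a fold of 0.845 to 1.68. Slc2a1 was at -0.20 ± 0.14 (SE; adjusted p = 0.557 by edgeR), with an interval from a fold of 0.709 to 1.07. The lower bound for Txnip was 0.845 over these 5 libraries, against 0.375 over all 6. The library left out had the highest Txnip, so its omission had to raise the fitted fold. The higher bound is therefore no separate evidence on a fall of Txnip.

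The IPA and the remaining untreated libraries did not overlap in CPM for Arrdc4, at 5.00 to 5.32 CPM with IPA against 2.37 and 4.24 CPM, although the counting interval of untreated replicate 3 overlaps those of all 3 IPA libraries. The same held for Txnip by a narrow margin, with a lowest IPA value of 9.43 CPM against 9.34 CPM in untreated replicate 3, whose counting intervals overlap, and on the TMM scale these libraries did overlap, at 8.93 and 9.14 CPM. Groups that do not overlap and are higher with IPA made up 19.8% of the 25592 IDs in this comparison, and those lower with IPA 13.9%, so such an order is common in the table. Of the 6 pairs of an IPA and an untreated library, Slc2a1 was higher with IPA in 2.

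**Figure D3:**
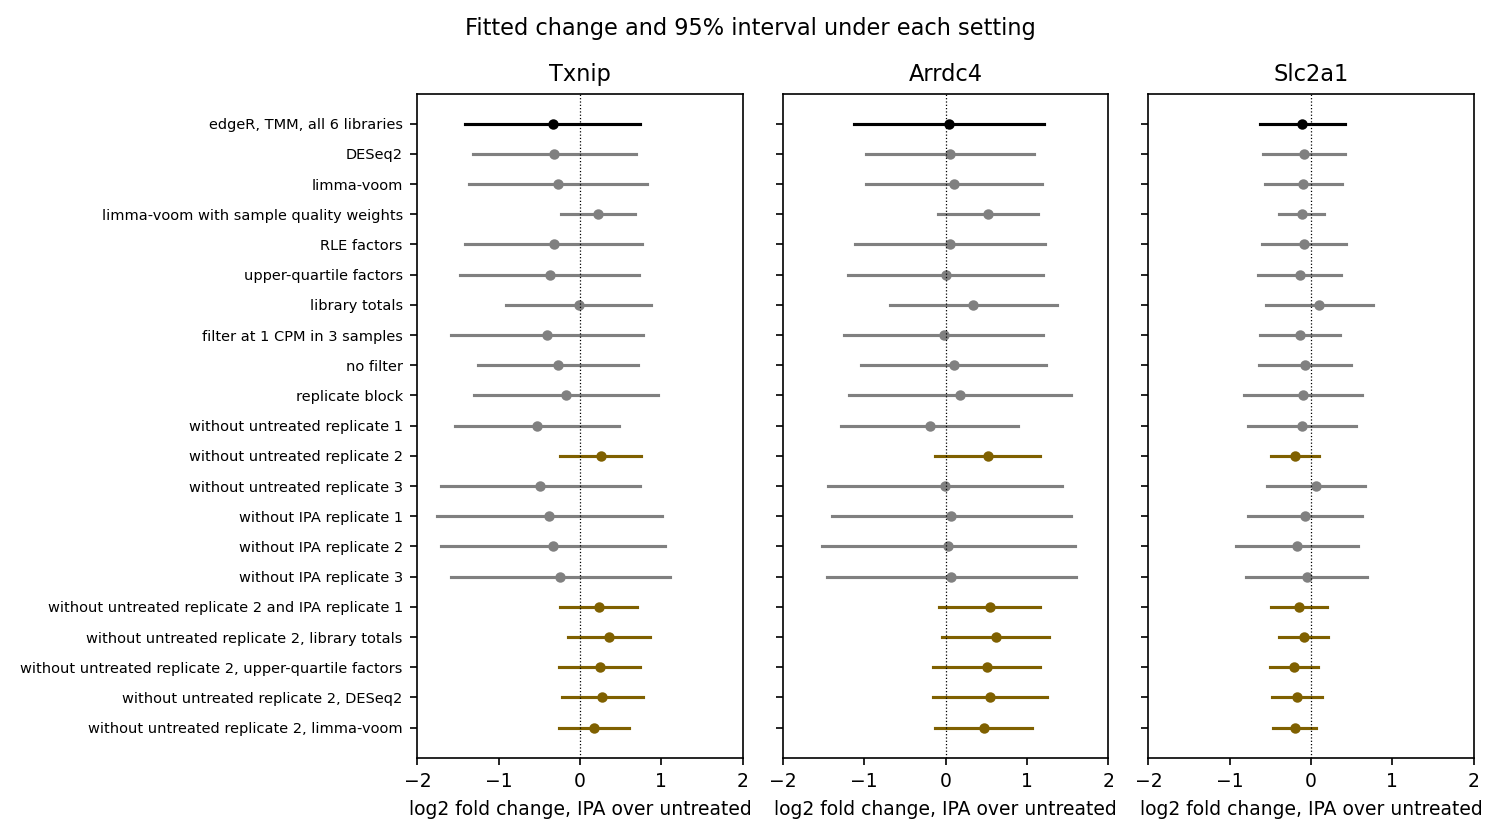
Fitted log2 fold change, IPA over untreated, with its 95% interval for each gene under each setting; black is the edgeR fit of all 6 libraries, brown are settings without untreated replicate 2 and grey are the other settings. Txnip stands at -0.34 with all libraries and at 0.25 without untreated replicate 2, and all intervals shown include 0.

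Ratios of counts within a library need no normalization between libraries, and they ask whether the arrestins and the transporter moved apart. They are not corrected for gene length, so they are compared between libraries only. Txnip had 3.89, 3.19 and 3.34 counts per 100 Slc2a1 counts in IPA replicates 1, 2 and 3, against 2.48, 7.73 and 2.48 in untreated replicates 1, 2 and 3. Untreated replicates 1 and 3 had nearly the same ratio although their depths differ, the IPA libraries were above both, and untreated replicate 2 was above all others. The mean difference of the log2 ratio, IPA minus untreated, was -0.06 (two-sided exact permutation p = 1, n = 3 each; 0.1 is the smallest p this design allows). Without untreated replicate 2 the difference was 0.48, with an exact permutation p of 0.2, the smallest that 3 against 2 libraries allow.

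Arrdc4 had 1.71, 1.57 and 1.77 counts per 100 Slc2a1 counts in IPA replicates 1, 2 and 3, against 0.832, 2.72 and 1.13 in untreated replicates 1, 2 and 3. As for Txnip, the IPA libraries were above untreated replicates 1 and 3 and below untreated replicate 2. How often ratios of other genes show this order was not tested. The mean difference of the log2 ratio was 0.31 (exact permutation p = 0.6, n = 3 each). It was 0.80 without untreated replicate 2 (exact permutation p = 0.2, the smallest that 3 against 2 libraries allow). Without untreated replicate 1 the mean difference was -0.05.

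The 2 alpha-arrestins were also set against each other. Txnip had 2.28, 2.03 and 1.89 counts per Arrdc4 count in IPA replicates 1, 2 and 3, against 2.98, 2.85 and 2.21 in untreated replicates 1, 2 and 3. The groups overlapped only in that IPA replicate 1, which rests on 18 Arrdc4 counts, was above untreated replicate 3. The mean difference of the log2 ratio was -0.37 (exact permutation p = 0.2, n = 3 each), and -0.32 without untreated replicate 2 (exact permutation p = 0.4). Adjusted by Benjamini-Hochberg over the 3 ratios, the exact permutation p-values with all 6 libraries were 1 for Txnip to Slc2a1, 0.9 for Arrdc4 to Slc2a1 and 0.6 for Txnip to Arrdc4.

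**Figure D4:**
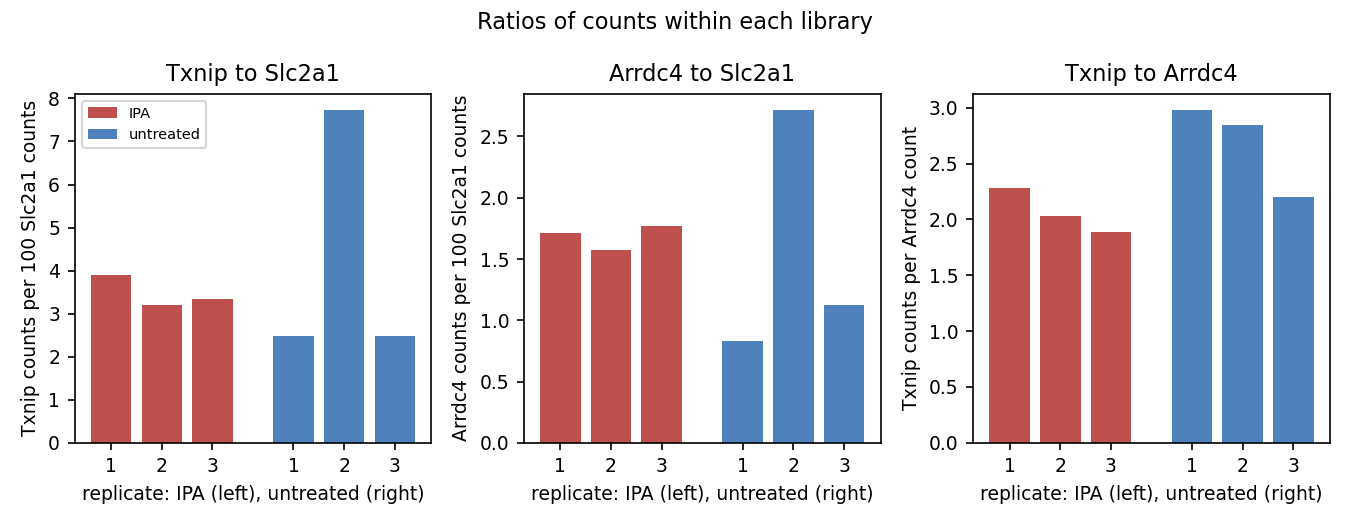
Ratios of raw counts within each library, with the 3 IPA libraries on the left of each panel and the 3 untreated libraries on the right. Untreated replicate 2 has the highest ratio of Txnip to Slc2a1, at 7.73 per 100, and of Arrdc4 to Slc2a1, at 2.72 per 100, and the ratio of Txnip to Arrdc4 runs from 1.89 to 2.98 over all libraries.

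Across the 6 libraries Txnip and Arrdc4 varied together, with a Pearson r of 0.88 in log2 CPM, and of 0.92 over the 5 libraries without untreated replicate 2. Neither followed Slc2a1, with r of -0.20 for Txnip and -0.09 for Arrdc4 over 6 libraries, and 0.15 and 0.13 over 5. These values describe few libraries that share depth and normalization with all other genes. Of 11147 IDs that averaged 10 CPM or more, 4.74% had an r over 0.95 with Txnip over the 6 libraries, and 1.21% over the 5 without untreated replicate 2. For Arrdc4 such IDs made up 0.718% over 6 libraries and 2.80% over 5. For Slc2a1 they made up 0.0179% over 6 and 0.538% over 5, so the order of the 3 genes in this depended on that library. The r of Txnip with Arrdc4 was under 0.95 in both sets of libraries. All IDs over 0.95 with either gene thus followed it more closely than the other arrestin did. Whether Txnip and Arrdc4 share control in these cells was not tested. The ID most like Txnip over 6 libraries was ENSMUSG00000030591 (r = 0.997), followed by ENSMUSG00000074398 and ENSMUSG00000002835. For Arrdc4 it was ENSMUSG00000026856 (r = 0.997), followed by ENSMUSG00000021453 and ENSMUSG00000002102. For Slc2a1 it was ENSMUSG00000004267 (r = 0.972), followed by ENSMUSG00000003308 and ENSMUSG00000089669. ENSMUSG00000004267 was also the ID most like Slc2a1 over the 5 libraries (r = 0.998), and ENSMUSG00000074398 was again among the first 3 for Txnip (r = 0.995). The sources used here do not give names for these IDs.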

How the data were processed

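The authors deposited unnormalized read counts, whole numbers for each Ensembl gene, from 6 RNA-seq libraries of 4T1 cells. The submitters' processing notes name the builds GRCm38 and mm10; for the aligner, counter, annotation release and strand setting, nothing is given in the sources used here. Groups and replicate numbers come from the sample titles, and the treated columns were matched to the titles by letters and number. Nothing says that replicates were separate cultures, so p-values measure the spread between these samples only, which may be technical. No replicate pair agreed within sampling noise (lowest chi-square per degree of freedom 6.56).

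Counts were fitted over the whole table with edgeR 4.0.16 in R 4.3.3 (TMM, filterByExpr, robust quasi-likelihood F-test, Benjamini-Hochberg over all IDs tested, two-sided). Standard errors are the log2 fold change divided by the square root of F, with 95% intervals from the fit's degrees of freedom. CPM without TMM uses library totals. Log2 ratios within a library used a pseudocount of 0.5. DESeq2 1.42.0, limma-voom (limma 3.58.1), other factors and filters, a replicate block and left-out samples were alternatives. The procedure was tested on simulated data. There the fit of all 6 libraries missed nearly all changes put in, so the absence of a call with it does not show the absence of a change. The fit without untreated replicate 2 recovered most of them. Its false calls were a larger share of its calls than the threshold of 0.05 names. Changes were put only into IDs above a set mean level, which Arrdc4, at 4.64 CPM over the 6 libraries, does not reach. No simulated library stood apart as untreated replicate 2 does. The simulation therefore does not show how well either fit would detect a change of Arrdc4 in these libraries. A count of 3 corresponds to 0.880 CPM in the shallowest library and 0.0509 CPM in the deepest, for counting error only.

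The 3 genes and all lists and alternatives were chosen with earlier results of these data known. The named genes are the 3 members and, by Pearson r of log2 CPM (prior count 2), the 3 most similar IDs of at least 10 CPM. The pairing of the 3 IDs with symbols came with that choice. The RefSeq table gives 0 Ensembl IDs for its 49997 genes, so 16 further gene lists and the cell type markers, written by symbol, were not analysed here. The replicate numbers were not taken to pair the samples.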

Additional observations from a re-analysis of the deposited data

How the results depend on the processing

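Of 20 alternative fits, 0 called Txnip, Arrdc4 or Slc2a1, with adjusted p-values from 0.305 to 1.00. The direction was not settled for any of them. Txnip, at -0.34 with all 6 libraries, was positive in 7 fits: 0.22 with sample quality weights (0.0388 for untreated replicate 2) and, without untreated replicate 2, 0.25 with edgeR, 0.36 with library totals, 0.24 with upper-quartile factors, 0.27 with DESeq2, 0.18 with limma-voom and 0.23 when IPA replicate 1 was also left out. Arrdc4, at 0.04, was -0.021 with a filter of 1 CPM in 3 samples and 0.54 without untreated replicate 2 and IPA replicate 1. Slc2a1, at -0.11, was 0.10 with library totals. With 1 library left out in turn, Txnip ran from -0.53, when untreated replicate 1 was omitted, to 0.25. Arrdc4 ran from -0.19, when untreated replicate 1 was omitted, to 0.52, when untreated replicate 2 was, and stood at -0.0057 when untreated replicate 3 was. Slc2a1 ran from -0.20, when untreated replicate 2 was omitted, to 0.062, when untreated replicate 3 was. The difference in log2 ratio ran from -0.33 to 0.48 for Txnip to Slc2a1, from -0.045 to 0.80 for Arrdc4 to Slc2a1 and from -0.50 to -0.29 for Txnip to Arrdc4.

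The counts of IDs higher and lower with IPA, 0 and 0 with all 6 libraries, were 22 and 63 with DESeq2, 492 and 755 with sample quality weights, and 1 and 0 with library totals and with no filter. With 1 library left out they ran from 0 to 322 and from 0 to 564, and all calls came from leaving out untreated replicate 2. Without that library they were 719 and 763 when IPA replicate 1 was also left out, 691 and 327 with library totals, 309 and 581 with upper-quartile factors, 634 and 660 with DESeq2 and 660 and 1009 with limma-voom. Beyond leaving out that library, the cause was not tested.

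With the replicate block the fitted changes were -0.17 for Txnip, 0.18 for Arrdc4 and -0.10 for Slc2a1, none called, and the counts of calls stayed at 0. The differences in log2 ratio are the same with the block, with exact sign-flip p-values of 1 for Txnip to Slc2a1, 0.75 for Arrdc4 to Slc2a1 and 0.25 for Txnip to Arrdc4. The smallest p that 3 pairs allow is 0.25, and Txnip to Arrdc4 was lower with IPA in all 3 same-numbered pairs. Same-numbered samples deviated together with correlations of -0.0771, 0.0183 and 0.161, and 3 of 6 samples correlated best with their own number. Depth limits Arrdc4 in IPA replicate 1 most, at 18 counts.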
